A study of Mus musculus with 48 samples.

Results

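The 10 hypoxia response genes described here are Hif1a, Epas1, Egln1, Egln3, Vegfa, Bnip3, Adm, Ankrd37, Car9 and Ndrg1, taken by name from the 18782 genes of the deposited count table. All 10 had enough counts to enter the tests, which covered 14431 genes. The libraries came from bulk thoracic aorta of wild-type C57BL/6J mice, 1 library per mouse and 48 in all, and every mouse was 3 weeks old at the start of the 28-day induction. Mice given β-aminopropionitrile (BAPN, 0.4% of the drinking water), which blocks the lysyl oxidases that cross-link collagen and elastin, were divided by the state of the aorta at the end. MaAAD (7 males) and FeAAD (9 females) had developed aortic dissection or aneurysm, MaNonAD (4 males) and FeNonAD (8 females) had no detectable lesion, and MaCon (10 males) and FeCon (10 females) drank plain water. AAD and NonAD are therefore outcomes among mice that survived the induction and not assigned treatments, and the NonAD and AAD comparisons of a sex share its controls. The study took RNA from lesioned segments, and which segment was taken from aortas without lesions is not given in the sources used here. In bulk tissue, fewer cells of a type and less RNA per cell cannot be told apart.

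Cells sense oxygen through hypoxia-inducible factors (HIFs). Their alpha subunits, HIF-1α (Hif1a) and HIF-2α (Epas1), are marked for degradation by prolyl hydroxylases that need oxygen, chiefly PHD2 (Egln1) and PHD3 (Egln3), and accumulate as protein when oxygen falls. They then bind short DNA motifs and raise transcription of genes for vessel growth (Vegfa), vasodilation (Adm), mitochondrial turnover (Bnip3), pH control (Car9) and stress adaptation (Ndrg1, Ankrd37). Egln1 and Egln3 are themselves HIF targets, and the HIF alpha subunits are controlled mainly at the protein level, which RNA sequencing does not measure. In vessels Epas1 is abundant in endothelial cells, and Vegfa and Adm signal to that layer.

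The stretches of DNA before the gene starts that RefSeq gives are shown for 4 members that moved together or in opposite directions between mice, because the HIF motif is read there. Each is 250 bases, 5′ to 3′ on the strand of the gene, from RefSeq on GRCm38.p6, with the letters ACGTG or GCGTG on either strand in capitals. Hif1a lies at chr12:73907617-73907866 (+), Adm at chr7:110627407-110627656 (+), Bnip3 at chr7:138909507-138909756 (−) and Vegfa at chr17:46032378-46032627 (−), and the last line gives the 30 bases before Car9, at chr4:43506996-43507025 (+).
Hif1a: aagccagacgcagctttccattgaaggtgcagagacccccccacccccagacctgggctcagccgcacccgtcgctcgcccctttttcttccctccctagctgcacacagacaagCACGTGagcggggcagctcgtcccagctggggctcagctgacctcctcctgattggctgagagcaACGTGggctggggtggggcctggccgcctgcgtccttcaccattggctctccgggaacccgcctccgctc
Adm: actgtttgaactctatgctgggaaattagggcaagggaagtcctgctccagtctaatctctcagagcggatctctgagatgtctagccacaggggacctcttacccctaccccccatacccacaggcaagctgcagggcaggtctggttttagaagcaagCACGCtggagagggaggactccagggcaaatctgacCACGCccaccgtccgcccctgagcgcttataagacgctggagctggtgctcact
Bnip3: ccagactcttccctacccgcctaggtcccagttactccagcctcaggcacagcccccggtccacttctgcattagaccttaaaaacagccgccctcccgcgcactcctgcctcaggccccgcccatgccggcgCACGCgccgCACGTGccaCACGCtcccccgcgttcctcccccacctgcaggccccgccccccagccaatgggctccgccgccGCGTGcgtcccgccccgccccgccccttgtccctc
Vegfa: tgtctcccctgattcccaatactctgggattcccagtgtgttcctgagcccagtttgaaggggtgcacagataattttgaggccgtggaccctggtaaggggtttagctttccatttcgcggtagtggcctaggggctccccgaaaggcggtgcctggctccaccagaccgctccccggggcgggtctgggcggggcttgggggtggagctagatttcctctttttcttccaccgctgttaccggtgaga
Car9: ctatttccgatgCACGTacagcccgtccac
The Bnip3 window held 5 matches, the Hif1a window 3, the Adm window 2, and the Vegfa window shown none, while a second RefSeq window of Vegfa, at chr17:46025164-46025413 (−), held 2, and the only match in the 250 bases before Car9 started 18 bases before the gene start. The palindrome CACGTG was counted on both strands, and it is also the core E-box read by other factors. Of the 9 windows that RefSeq gave for 8 members, 8 held a match, beside 38.6% of 32851 windows of all genes. The bases just after the Hif1a window, the Egln3 window and the second Vegfa window were found in no GENCODE transcript of the gene, so the start behind each of these windows was not matched to GENCODE. The second Vegfa window also overlaps a GENCODE transcript of Vegfa, and it may not lie before a start of the gene. The Egln1 and Car9 windows overlap a GENCODE transcript as well, but the bases just after each were found in a transcript. Epas1 and Ndrg1 had no window. A match is only a run of letters, and no match says only that these letters are not in that window.

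Total counts ran from 13548003 to 17281262 per library. The 10 smooth muscle markers that define the aortic wall were all present, with summed levels between 34410 and 59820 CPM (counts scaled to a common library total, with TMM factors) in FeCon and between 15450 and 35480 in FeAAD, and all 10 fell in AAD in both sexes. The 11 macrophage and monocyte markers all rose in AAD in both sexes, from summed levels of 238 to 610 in MaCon to 968 to 4393 in MaAAD and from 288 to 687 in FeCon to 718 to 6343 in FeAAD. Of the 8 neutrophil markers, 7 were tested, and 7 rose in FeAAD and 5 in MaAAD against controls. FeAAD5 held the highest macrophage and neutrophil sums (6343 and 1157 CPM), FeAAD9 the lowest endothelial sum (359 CPM), and MaAAD1 the highest white fat sum (4745 CPM). These libraries also held extreme values of several members, so results that rest on them are given with and without them.

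Per kilobase of the longest annotated transcript, the 10 genes spanned more than 2 orders of magnitude in controls. In FeCon the mean level was highest for Epas1 (53.4 ± 6.76 CPM per kb, SD, n = 10) and Bnip3 (52.8 ± 16.6), whose ranges overlapped. Egln1 (34.8), Adm (34.6), Ndrg1 (32.5), Vegfa (26.3) and Hif1a (23.5) followed, and each lay within 1 SD of its neighbour. Egln3 was lower at 5.47 ± 1.69, Ankrd37 stood at 1.34 ± 0.484 and Car9 at 0.442 ± 0.197 CPM per kb. MaCon gave nearly the same order, with Bnip3 (47.4) just above Epas1 (46.5) and Adm (26.5) below Vegfa (34.4). Car9 was covered by 4 to 52 counts per library and Ankrd37 by 3 to 63, which limits the precision of both, whereas the lowest count of any other member was 114, for Egln3.

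**Figure D1:**
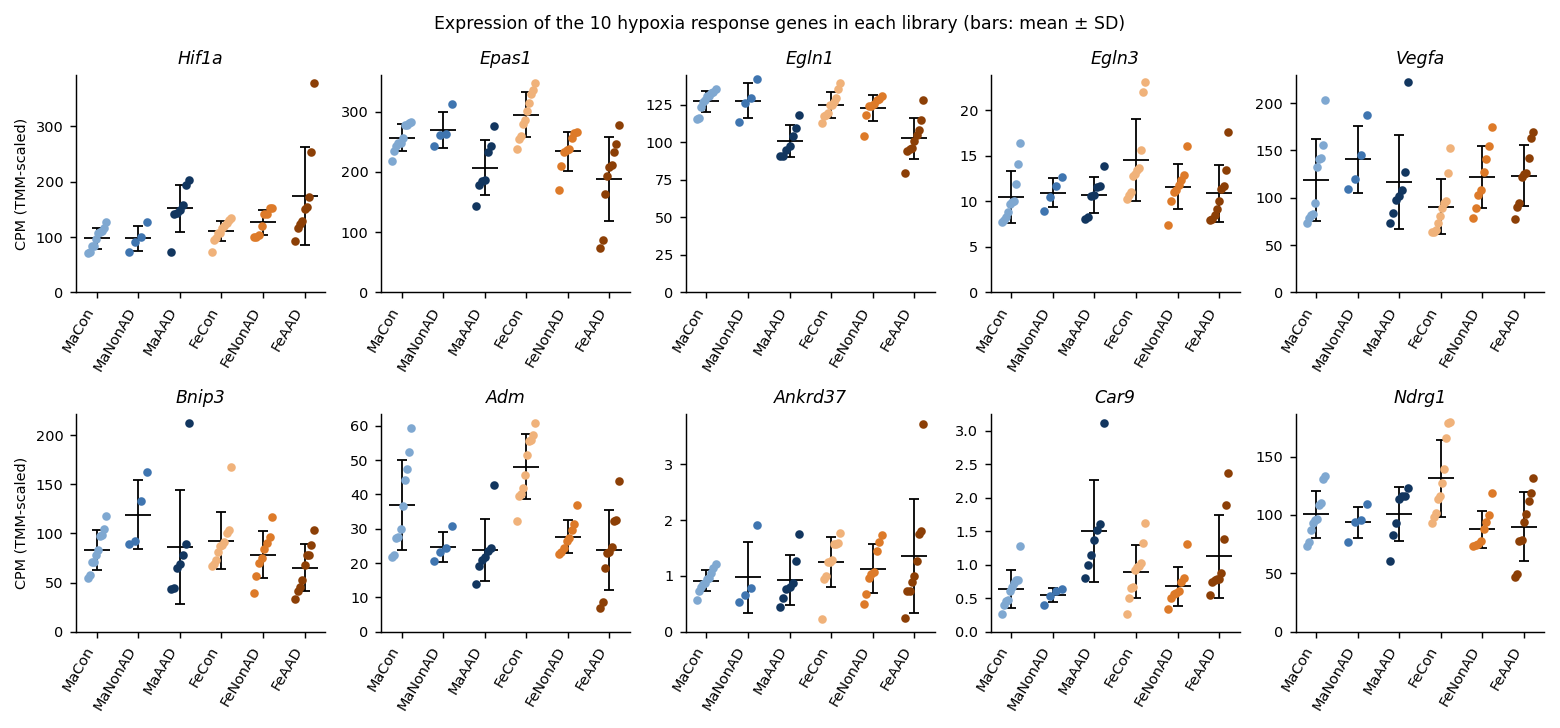
CPM (TMM-scaled, linear axes from 0) of each of the 10 genes in every library, 1 point per mouse, by group, with the mean and SD as bars. Hif1a reaches 378 CPM in 1 FeAAD library, Egln1 sits lower in both AAD groups, Adm is highest in FeCon, and Car9 is highest in MaAAD.

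In females with AAD, Hif1a rose while Adm, Epas1, Ndrg1, Egln3 and Egln1 fell against water controls. In males with AAD, Hif1a and Car9 rose and Egln1 and Adm fell. A gene is called here when its adjusted p is under 0.05 by edgeR's quasi-likelihood test with Benjamini-Hochberg adjustment over all 14431 genes. In FeAAD versus FeCon 6 of 10 members were called, 1 higher and 5 lower, where 44.4% of all tested genes were called (23.8% higher and 20.6% lower). In MaAAD versus MaCon 4 of 10 were called, 2 higher and 2 lower, where 35% of all genes were called (18.9% higher and 16.1% lower). With 10 genes, neither share sets the members apart from the rest of the table. The median log2 fold change of the 10 genes was −0.35 in females, beside 0.00127 over all genes, and 0.01 in males, beside −0.03. Only Adm in females and Car9 in males also passed an absolute log2 fold change of 1, a size that 12.7% and 11.4% of all genes reached together with the adjusted p.

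**Figure D2:**
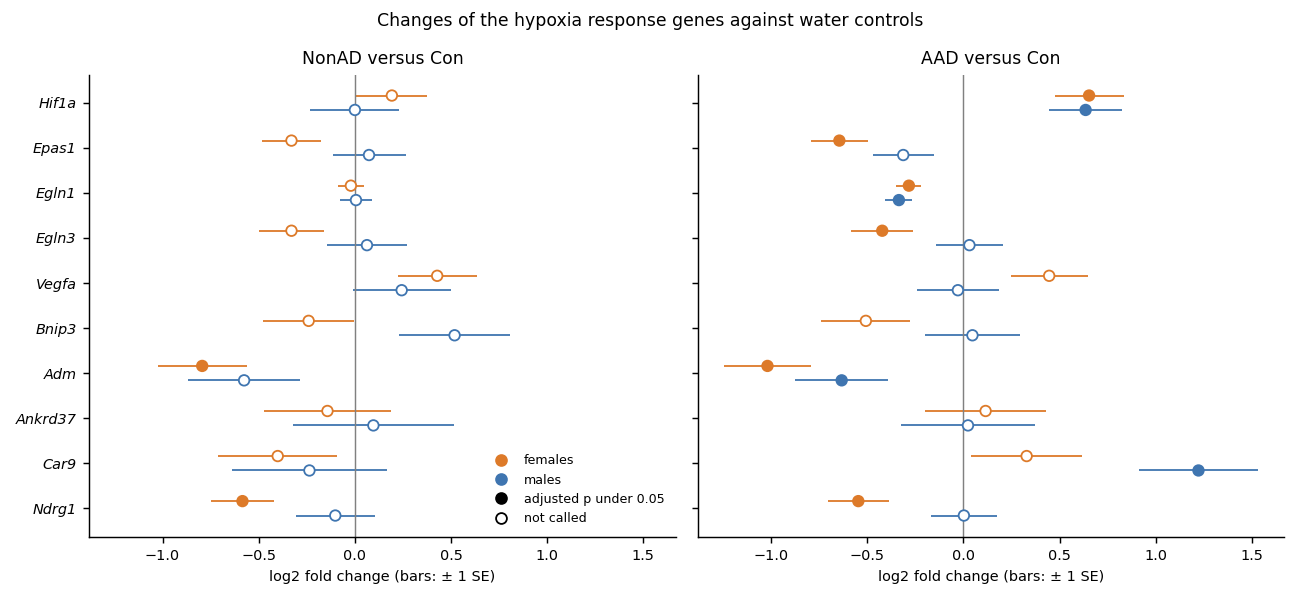
Log2 fold change against sex-matched water controls (horizontal axis, bars ± 1 SE) of the 10 genes in NonAD (left) and AAD (right), females in orange and males in blue, with filled points for an adjusted p under 0.05. Hif1a and Egln1 are displaced alike in both sexes in AAD, Adm lies left of 0 in all 4 comparisons, and Car9 is displaced to the right by 1.22 in MaAAD.

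Hif1a encodes the HIF-1α subunit that most cells carry. Its level was 73.0 CPM in the lowest, 112 in the median and 134 in the highest FeCon library, and 92.0, 149.9 and 378 in FeAAD. In MaCon it ran from 71.2 through a median of 102 to 126, and in MaAAD from 73.7 through 149 to 203.5. The groups overlapped, but 5 of 9 FeAAD libraries lay above every FeCon library and 6 of 7 MaAAD libraries above every MaCon library, the exception being MaAAD1. The log2 fold change was 0.65 ± 0.18 (SE) for FeAAD (adjusted p = 0.0027) and 0.64 ± 0.19 for MaAAD (adjusted p = 0.00753). Without FeAAD5 and FeAAD9, at 378 and 253 CPM, the female change was 0.28 and was no longer called (adjusted p = 0.121). The 4 MaNonAD libraries held 99.8, 73.3, 91.2 and 127 CPM and FeNonAD 99.99 to 153, and neither group was called against its controls (log2 fold change 8.77e-05 ± 0.23 and 0.19 ± 0.18).

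Epas1 encodes HIF-2α, the subunit rich in endothelium, and moved the other way. FeCon libraries held 237 to 348 CPM (median 293) and FeAAD 74.1 to 278 (median 208.5). All 9 FeAAD libraries lay below the FeCon median and 7 below every FeCon library. The log2 fold change was −0.65 ± 0.15 (adjusted p = 0.000434) and stayed called without FeAAD5 and FeAAD9, the lowest libraries at 74.1 and 86.5 CPM (−0.41, adjusted p = 0.00268). In males Epas1 ran from 218 to 283 CPM in MaCon and from 143 to 276 in MaAAD, a log2 fold change of −0.31 ± 0.16 that missed the threshold (adjusted p = 0.126) but passed without FeAAD5 and FeAAD9, which enter the shared estimate of the spread (−0.28, adjusted p = 0.0438). FeNonAD held 169.8 to 267 CPM, with all 8 libraries below the FeCon median, but the log2 fold change of −0.33 ± 0.15 was not called (adjusted p = 0.142). When only the compared groups were fitted, that change passed (−0.33, adjusted p = 0.0245), as it did without FeAAD5 and FeAAD9 (−0.33, adjusted p = 0.0259).

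Egln1 encodes PHD2, the main oxygen sensor of the pathway, and had the smallest SD relative to its mean in FeCon. FeCon libraries held 113 to 139.7 CPM (median 125) and MaCon 116 to 136 (median 129.6). FeAAD ran from 79.6 to 128 (median 101) and MaAAD from 90.9 to 119 (median 97.3). Thus 7 of 9 FeAAD and 6 of 7 MaAAD libraries lay below every control library of their sex. The change was small in size, −0.28 ± 0.065 for FeAAD (adjusted p = 0.000402) and −0.34 ± 0.070 for MaAAD (adjusted p = 0.000168), and it kept its call in every one of the 17 alternative fits in each sex. In NonAD no such change was called. Egln1 held 104 to 131 CPM in FeNonAD and 114, 142, 126 and 129.7 in MaNonAD, with log2 fold changes of −0.02 ± 0.067 and 0.0057 ± 0.084. The summed macrophage and monocyte markers moved in the opposite direction among mice of a group (Pearson r = −0.653), as described further on.

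Egln3 encodes PHD3, a paralogue that is usually among the more strongly hypoxia-induced genes. It ran from 10.3 to 23.1 CPM in FeCon (median 13.2) and from 7.94 to 17.6 in FeAAD (median 10.1), a log2 fold change of −0.42 ± 0.16 (adjusted p = 0.0303). That call was lost without FeAAD9 and when only the compared groups were fitted (adjusted p = 0.0916). In males MaCon held 7.67 to 16.3 CPM and MaAAD 8.09 to 13.8, with a log2 fold change of 0.03 ± 0.17. FeNonAD held 7.39 to 16.0 CPM, and its change of −0.33 was not called. Egln3 was also the only member called between control males and females.

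Adm encodes adrenomedullin, a vasodilator peptide made by vascular cells, and had the most negative log2 fold change of the 10 in both AAD comparisons with controls. FeCon libraries held 32.2 to 60.8 CPM (median 48.6). FeNonAD held 22.6 to 36.9 (median 26.8) and FeAAD 6.95 to 43.9 (median 23.3). All 8 FeNonAD and all 9 FeAAD libraries lay below the FeCon median, and 7 of each lay below every FeCon library. The log2 fold change was −1.02 ± 0.22 in FeAAD (adjusted p = 0.000237), or a level 50.6% lower, and −0.79 ± 0.23 in FeNonAD (adjusted p = 0.0161). Without FeAAD5 and FeAAD9, at 8.64 and 6.95 CPM, the FeAAD change was −0.75 and stayed called. In males the controls were more spread, from 21.9 to 59.3 CPM (median 33.3), and MaAAD ran from 13.9 to 42.7 (median 21.9). The log2 fold change of −0.63 ± 0.24 was called (adjusted p = 0.0358) but lost its call in 6 of 17 alternative fits, among them those without MaAAD7 (adjusted p = 0.0998), MaNonAD2 (0.0569) or MaNonAD3 (0.0590). MaNonAD held 23.1, 30.8, 24.3 and 20.7 CPM, all below the MaCon median, and its change of −0.58 ± 0.29 was not called (adjusted p = 0.43).

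Vegfa encodes the growth factor that drives vessel sprouting and did not pass the test in any of the 12 comparisons. Its spread between mice of a group was wide, with 63.6 to 153 CPM in FeCon, 78.6 to 174.6 in FeNonAD and 77.6 to 169.9 in FeAAD. It passed only in 2 alternative fits of FeAAD versus FeCon, without MaAAD1 (0.46, adjusted p = 0.0403) and with only the compared groups (0.46, adjusted p = 0.0457). The log2 fold changes against FeCon were 0.43 ± 0.21 in FeNonAD (adjusted p = 0.159) and 0.45 ± 0.20 in FeAAD (adjusted p = 0.0662), the latter with an approximate 95% interval of 0.05 to 0.84. Males held 73.3 to 203.6 CPM in MaCon and 73.1 to 222 in MaAAD, with a log2 fold change of −0.03 and an interval of −0.45 to 0.39. MaNonAD held 119.6, 188, 146 and 109 CPM, a change of 0.24 ± 0.26.

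Bnip3 encodes a mitochondrial outer membrane protein that starts the removal of mitochondria, and it too was not called in any comparison. It ran from 66.4 to 167 CPM in FeCon and from 33.0 to 103 in FeAAD, a log2 fold change of −0.51 ± 0.23 (adjusted p = 0.0697). The replicate block (−0.56, adjusted p = 0.0465) and the fit without MaAAD1 (−0.50, adjusted p = 0.0375) passed the threshold. In males MaCon held 54.9 to 117 CPM and MaAAD 43.2 to 213, and the highest value was that of MaAAD1, the library with most white fat markers. The 4 MaNonAD libraries held 92.2, 162.5, 133 and 89.2 CPM, all above the MaCon median, a change of 0.52 ± 0.29 that was not called (adjusted p = 0.492).

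Car9 encodes carbonic anhydrase IX, a cell surface enzyme often read as a hypoxia marker, and it was the scarcest member. It held 0.267 to 1.28 CPM in MaCon (4 to 20 counts, median 9.5) and 0.799 to 3.11 in MaAAD (13 to 52 counts, median 22). All 7 MaAAD libraries lay above the MaCon median, 4 lay above every MaCon library, and all 7 lay above the MaNonAD libraries, at 0.539, 0.637, 0.394 and 0.601 CPM. The log2 fold change was 1.22 ± 0.31 against MaCon (adjusted p = 0.00153), or 2.33-fold, and it was called in all 17 alternative fits. Against MaNonAD it was 1.46 ± 0.42 and missed the threshold (adjusted p = 0.0562), while DESeq2 called it (adjusted p = 0.0256). In females Car9 ran from 0.265 to 1.63 CPM in FeCon and from 0.550 to 2.37 in FeAAD, a log2 fold change of 0.33 ± 0.29 that was not called (adjusted p = 0.375).

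Ndrg1 encodes a cytoplasmic protein induced by hypoxia and differentiation, and was lower in FeNonAD and in FeAAD than in the FeCon libraries that both comparisons share. FeCon3, FeCon4 and FeCon6 held 165.6, 180.1 and 179.3 CPM, more than any other library, and no fit left them out. FeCon libraries held 92.9 to 180 CPM (median 122). FeNonAD held 73.8 to 118.5 (median 82.8) and FeAAD 47.2 to 132 (median 93.6). All 8 FeNonAD libraries and 8 of 9 FeAAD libraries lay below the FeCon median. The log2 fold change was −0.58 ± 0.17 in FeNonAD (adjusted p = 0.0136) and −0.55 ± 0.16 in FeAAD (adjusted p = 0.00467), and without FeAAD5 and FeAAD9 the FeAAD change was −0.36 and missed the threshold (adjusted p = 0.0569). In males MaCon ran from 73.8 to 133 CPM and MaAAD from 60.7 to 123, with a log2 fold change of 0.0023 ± 0.17. MaNonAD held 109, 76.7, 95.6 and 93.9 CPM. Ankrd37, an ankyrin repeat protein known as a HIF-1 target, ran from 0.220 to 1.77 CPM in FeCon, 0.244 to 3.73 in FeAAD, 0.574 to 1.21 in MaCon and 0.434 to 1.75 in MaAAD. It was called in no comparison, and its approximate 95% interval of −0.50 to 0.73 for FeAAD versus FeCon leaves room for changes of either sign.

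Aortas of BAPN-treated females without lesions differed from controls in 2 members, Adm and Ndrg1, both lower, where 14.5% of all genes were called (7.66% lower). Neither reached an absolute log2 fold change of 1, which 2.75% of all genes did while called. FeAAD differed from FeNonAD in 1 member, Egln1 (−0.26 ± 0.069, adjusted p = 0.00525), where 18.2% of all genes were called (5% lower, and 7.04% called with an absolute log2 fold change of 1). That call was lost without FeAAD5 and FeAAD9 (−0.20, adjusted p = 0.0727). MaNonAD and MaCon differed in 0 members by edgeR and by DESeq2, with 0 at an unadjusted p under 0.05, where 0.624% of all genes were called. MaAAD and MaNonAD differed in 0 members, with 3 at an unadjusted p under 0.05, where 0.409% of all genes were called. Egln1 stood just over the threshold in that comparison (−0.34 ± 0.088, adjusted p = 0.0502) and was called by DESeq2 (adjusted p = 0.00943), as was Car9. Leaving out MaAAD1 gave 4 calls there, Car9 and Hif1a higher and Egln1 and Bnip3 lower. The share of all genes called in that fit was not counted, so these calls do not set the members apart from other genes.

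Between the sexes, 1 of 10 members was called in controls, lower in MaCon than in FeCon, where 14.3% of all genes were called (7.9% lower, and 1.51% called with an absolute log2 fold change of 1). That was Egln3, at 7.67 to 16.3 CPM in males against 10.3 to 23.1 in females, a log2 fold change of −0.48 ± 0.16 (adjusted p = 0.0352), and 7 of 10 MaCon libraries lay below every FeCon library. The call was lost without FeCon10 (adjusted p = 0.0600) and with only the control groups fitted (adjusted p = 0.0551). Ndrg1 was lower in control males by −0.39 ± 0.15 without passing (adjusted p = 0.084), and all 10 MaCon libraries lay below the FeCon median for Epas1 and for Ankrd37. Between the sexes in NonAD 0 members were called, with 1 at an unadjusted p under 0.05 (Bnip3, 0.60 ± 0.30), where 0.0624% of all genes were called, and in AAD 0 were called, with 0 at an unadjusted p under 0.05, where 0.0901% were. DESeq2 also called 0 in both.

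The difference between the sexes in the response to BAPN was tested as an interaction, and edgeR and DESeq2 called 0 members in each of the 3 interactions. The share of all genes called was 0.416% for NonAD versus Con, 1.34% for AAD versus Con and 0% for AAD versus NonAD. At an unadjusted p under 0.05 there was 1 member in the first, Bnip3 (0.76, approximate 95% interval 0.02 to 1.49, male minus female change), and 2 in the second, Ndrg1 (0.55, interval 0.09 to 1.00) and Car9 (0.89, interval 0.06 to 1.73). The Egln1 interaction in AAD was −0.05 with an interval of −0.24 to 0.13, and that of Hif1a was −0.02 with an interval of −0.53 to 0.50.

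Within groups, some members rose together and others went in opposite directions. Correlations were computed on deviations of log2(CPM + 1) from the group means over the 48 libraries, with permutation within groups (100000 resamples) and adjustment over 45 pairs, and 14 pairs passed by Pearson's r and 8 of these also by Spearman's rho. Libraries with more Hif1a held less Adm (r = −0.777, rho = −0.661, permutation p = 1e-05 each, the smallest the resamples can give, adjusted p = 0.000225 each). Without the most extreme libraries, FeAAD5 and MaAAD1, r was −0.707. Vegfa and Bnip3 rose and fell together (r = 0.761, rho = 0.729, permutation p = 1e-05 each, adjusted p = 0.000225 each), with r = 0.72 without MaAAD1 and MaCon2.

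Most remaining pairs that passed by both r and rho linked Epas1 or Egln1 with other members. The exception was Egln3 with Ndrg1 (r = −0.446, permutation adjusted p = 0.02, and rho = −0.418, adjusted p = 0.0322). Epas1 with Bnip3 also passed by both (r = 0.427, permutation adjusted p = 0.029, and rho = 0.426, adjusted p = 0.0322). Neither of these passed by r over the AAD libraries alone (permutation adjusted p = 0.331 and 0.124). Epas1 and Egln1 varied in the same direction (r = 0.652, permutation p = 8e-05, adjusted p = 0.00101, and rho = 0.518, p = 0.00081, adjusted p = 0.00911), as did Epas1 and Adm (r = 0.677, permutation p = 0.00043, adjusted p = 0.00283, and rho = 0.439, p = 0.00364, adjusted p = 0.0281). Egln1 and Bnip3 did so too (r = 0.556, permutation p = 0.00023, adjusted p = 0.00207, and rho = 0.507, p = 0.0007, adjusted p = 0.00911). Without the 2 most extreme libraries, r was 0.586, 0.462 and 0.639 in these pairs. Hif1a went against Egln1 (r = −0.622, permutation p = 9e-05, adjusted p = 0.00101, and rho = −0.436, p = 0.00375, adjusted p = 0.0281) and against Epas1 by r (−0.653, permutation p = 0.00044, adjusted p = 0.00283) but not by rho (−0.386, p = 0.0138, adjusted p = 0.0688). Without FeAAD5 and MaAAD1 the 2 values of r were −0.457 and −0.488. Without FeAAD5 and FeAAD9, 8 pairs passed instead of 14, Hif1a with Adm (r = −0.668) and Vegfa with Bnip3 (r = 0.818) among them. Epas1 with Adm (r = 0.353, adjusted p = 0.114, permutation) and Hif1a with Epas1 (r = −0.354, adjusted p = 0.154, permutation) no longer passed there, and Hif1a with Egln1 did not pass without TMM factors (r = −0.401, adjusted p = 0.0636, permutation). Egln1 with Bnip3 did not pass over the AAD libraries alone (r = 0.539, adjusted p = 0.0774, permutation).

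**Figure D3:**
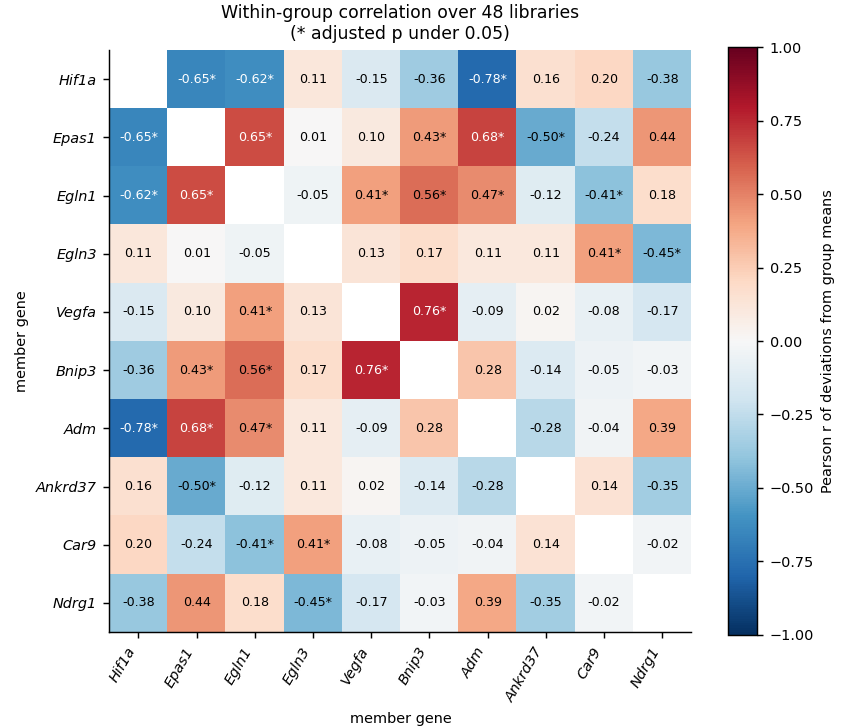
Pearson r between each pair of members, computed on deviations of log2(CPM + 1) from group means over 48 libraries, with red for positive and blue for negative values and an asterisk for a permutation adjusted p under 0.05. The strongest cells are Hif1a with Adm at −0.78 and Vegfa with Bnip3 at 0.76, while Hif1a and Vegfa are at −0.15.

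The summed levels of cell type markers moved with several members within groups (60 relations of 10 members with 6 marker lists, same permutation and adjustment, of which 17 passed by r and 11 by both r and rho). Vegfa and Bnip3 followed the 6 white fat markers, which report adipocytes (r = 0.886 and 0.856, rho = 0.871 and 0.823, permutation p = 1e-05 and adjusted p = 0.0002 each). Without MaAAD1 and MaCon9 the 2 values of r were 0.864 and 0.812. The 5 brown fat markers were not among the 6 lists correlated. The library with the highest white fat sum also held the highest brown fat sum in MaCon, MaNonAD, MaAAD and FeCon, but not in FeNonAD or FeAAD. Whether the link is particular to white fat was not tested. The white fat sum overlapped between groups, with 381 to 4745 CPM in MaAAD, 432 to 2374 in MaCon, 502 to 1773 in FeAAD and 553 to 1962 in FeCon, and its median was 851.5 CPM in FeCon, 1089 in FeAAD, 1285 in MaCon and 904 in MaAAD.

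Epas1 followed the 10 endothelial markers (r = 0.783, rho = 0.748, permutation p = 1e-05 and adjusted p = 0.0002 each, r = 0.67 without FeAAD5 and FeAAD9) and ran against the neutrophil markers (r = −0.812, rho = −0.593, permutation p = 5e-05 and 0.00035, adjusted p = 0.00072 and 0.0035, r = −0.705 without FeAAD5 and MaAAD7). The endothelial sum was 636 to 1217 CPM in FeCon (median 887) and 359 to 1105 in FeAAD (median 819). Of the 10 endothelial markers, 2 were higher and 1 lower in FeAAD and 3 higher and 0 lower in MaAAD, where 44.4% and 35% of all genes were called. Egln1 ran against the macrophage and monocyte markers (r = −0.653, rho = −0.601, permutation p = 6e-05 and 3e-05, adjusted p = 0.00072 and 0.00045, r = −0.526 without FeAAD5 and MaAAD7) and Car9 ran with them (r = 0.543, rho = 0.545, permutation p = 0.00098 and 0.00015, adjusted p = 0.00588 and 0.0018, r = 0.47 without the same libraries). Hif1a rose with the neutrophil sum by r (0.646, permutation p = 0.00046, adjusted p = 0.00345, r = 0.461 without FeAAD5 and MaAAD7) but not by rho (0.35, p = 0.0197, adjusted p = 0.0846), and that sum ran from 9.68 to 20.2 CPM in MaCon, 12.8 to 405 in MaAAD, 7.95 to 19.7 in FeCon and 11.5 to 1157 in FeAAD. Ly6g, a defining neutrophil marker, was at 0 in all FeNonAD libraries. Other relations also passed by both r and rho. Vegfa ran against the smooth muscle sum (r = −0.553, rho = −0.505) and the fibroblast sum (r = −0.436, rho = −0.466). Ndrg1 ran against the neutrophil sum (r = −0.66, rho = −0.453), and Egln1 rose with the white fat sum (r = 0.48, rho = 0.456). Epas1 ran against the macrophage and monocyte sum (r = −0.548, rho = −0.418), with r = −0.255 without FeAAD5 and MaAAD7. The part of these cell types in the changes of the members was not tested.

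**Figure D4:**
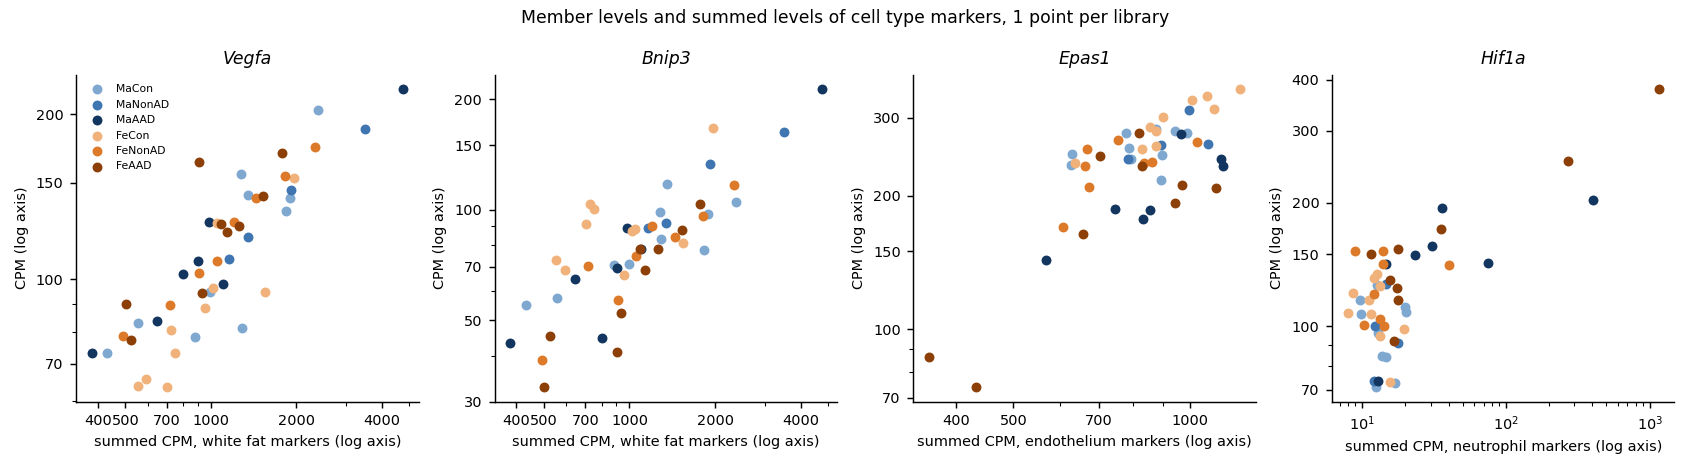
CPM of Vegfa, Bnip3, Epas1 and Hif1a (vertical, log axis) against the summed CPM of white fat, white fat, endothelial and neutrophil markers (horizontal, log axis), 1 point per library coloured by group. Vegfa and Bnip3 climb with the white fat sum over the libraries, up to 222 and 213 CPM in MaAAD1, Epas1 is lowest in FeAAD5 and FeAAD9, the 2 libraries with the least endothelial signal, and the highest Hif1a value, 378 CPM, is FeAAD5.

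Over the 13238 tested genes with a mean of at least 1 CPM, the closest within-group partners of Hif1a were Capza1 (r = 0.915), an actin capping subunit, and Copb2 (r = 0.90), a coat protein of transport vesicles. Those of Epas1 were Fmo5 (0.895) and Pcsk6 (0.868), those of Egln1 Fbxo9 (0.813) and Prkag2 (0.80), and those of Vegfa Fahd1 (0.90) and Hspa9 (0.893). Bnip3 was closest to Pnpla2 (0.898), the adipose triglyceride lipase, and Echs1 (0.894), an enzyme of fatty acid oxidation. Adm was closest to Ctsf (0.863) and Gstm1 (0.835), Ndrg1 to Fam180a (0.758) and Mst1r (0.739), Ankrd37 to Nubp1 (0.738) and Clns1a (0.713), and Egln3 to Eif2ak1 (0.617) and Paqr3 (0.575). Each r is over 48 libraries and describes likeness of pattern. Car9, with a mean under 1 CPM, was left out.

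Of 19 tested genes of the HIF machinery, 2 rose and 4 fell in FeAAD and 0 rose and 3 fell in MaAAD, where 44.4% and 35% of all genes were called, with a median log2 fold change of −0.08 and −0.12 beside 0.00127 and −0.03 over all genes. Crebbp, a transcriptional coactivator of HIF, fell in both sexes (−0.50 ± 0.075 and −0.38 ± 0.080, adjusted p = 6.07e-07 and 0.000163). In females Egln2, the third prolyl hydroxylase, fell from 103.7 ± 22.1 CPM (SD, n = 10) to 66.7 ± 8.57 (n = 9), a log2 fold change of −0.64 ± 0.12 (adjusted p = 1.68e-05), and it was also lower in FeNonAD (−0.53, adjusted p = 0.00233). Hif3a, a HIF alpha subunit that can act as a repressor, fell (−1.12 ± 0.42, adjusted p = 0.0259, lost without FeAAD5, without FeAAD9, without both and with only the compared groups) and Arnt2, a partner subunit, rose (0.78 ± 0.25, adjusted p = 0.00897). In males the chaperones Hsp90aa1 (−1.15 ± 0.22, adjusted p = 6.28e-05) and Hsp90ab1 (−0.71 ± 0.15, adjusted p = 0.00016), which hold HIF-1α stable, fell. Hsp90aa1 was also lower in MaNonAD (−1.08, adjusted p = 0.0498), while Hsp90ab1 was not called there (−0.56, adjusted p = 0.153). Their means were 617 and 1692 CPM in MaCon beside 421.5 and 1244 in FeCon, and 278 and 1031 in MaAAD beside 327 and 1117 in FeAAD. The female calls outside the naming rule, named after their values were seen, were the ubiquitin ligases Siah2 (0.48, higher) and Siah1a (−0.35, lower).

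Genes outside the 10 that are widely described as HIF targets moved in both directions. Of 59 tested, 16 rose and 14 fell in FeAAD and 15 rose and 11 fell in MaAAD, where 44.4% and 35% of all genes were called, so the calls lie near the background. The median log2 fold change was 0.14 and 0.07, beside 0.00127 and −0.03 over all genes. Those called in both sexes numbered 19, which is 63.3% of the female and 73.1% of the male calls, and all 19 moved in the same direction, 10 up and 9 down. Over all genes, 56.4% of the female and 71.5% of the male calls were shared and 99.1% of the shared calls had the same direction, close to the values of this list. Cxcr4, a chemokine receptor of leukocytes, rose 5.88-fold in FeAAD and 3.10-fold in MaAAD (adjusted p = 8.6e-07 and 0.000926). Without FeAAD5 and FeAAD9 the female log2 fold change of Cxcr4 went from 2.56 to 1.92 ± 0.36 (SE) and stayed called (adjusted p = 3.61e-05). Stc2, a secreted glycoprotein, fell in FeAAD (−1.28 ± 0.28, adjusted p = 0.000192) and in MaAAD (−1.17 ± 0.30, adjusted p = 0.0019), the latter named after its value was seen.

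Hmox1, heme oxygenase 1, which breaks down heme, rose 19.6-fold in MaAAD (9.69 to 18.7 CPM in MaCon, 28.5 to 859 in MaAAD, adjusted p = 5.75e-07). In FeAAD the rise of 4.97-fold (12.5 to 146 CPM in FeCon, 24.4 to 1046 in FeAAD, adjusted p = 0.000769) rested on FeAAD5 and FeAAD9, and without them the log2 fold change was 0.33 instead of 2.31 (adjusted p = 0.58). Bhlhe40, a transcriptional repressor, rose in MaAAD (1.78 ± 0.20, adjusted p = 9.17e-09) and had a log2 fold change of 0.40 ± 0.19 in FeAAD that was not called (adjusted p = 0.0876). It also rose in MaNonAD (1.51 ± 0.23, adjusted p = 0.000142). Its change differed between the sexes by the interaction test in AAD (1.38 ± 0.28, adjusted p = 0.00778) and in NonAD (1.74 ± 0.31, adjusted p = 0.00233).

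**Figure D5:**
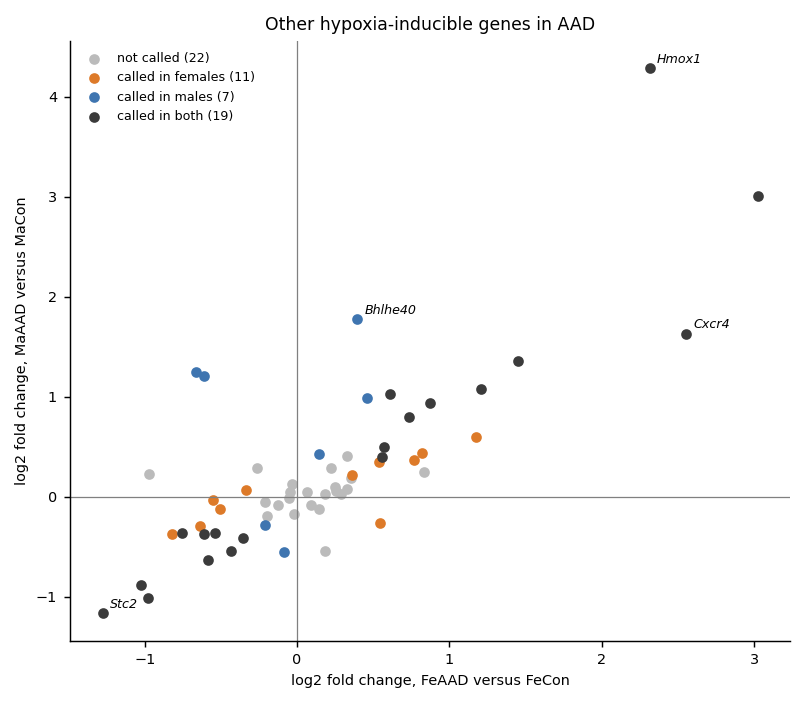
Log2 fold change in FeAAD versus FeCon (horizontal) and MaAAD versus MaCon (vertical) of the 59 other HIF targets, 1 point per gene, coloured by the sex in which the adjusted p was under 0.05. The 19 genes called in both sexes lie in the upper right and lower left, Hmox1 reaches 4.29 in males and 2.31 in females, and Bhlhe40 lies at 1.78 in males and 0.40 in females.

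Receptors and relatives of the 2 secreted members were compared next. Of 15 tested genes of the VEGF and adrenomedullin families and receptors, 3 rose and 1 fell in FeAAD and 3 rose and 2 fell in MaAAD, where 44.4% and 35% of all genes were called, with a median log2 fold change of 0.02 and 0.30 beside 0.00127 and −0.03. The VEGF co-receptors Nrp1 and Nrp2 rose in FeAAD (0.63 ± 0.12 and 0.78 ± 0.24, adjusted p = 5.05e-05 and 0.00648) and in MaAAD (0.47 ± 0.13 and 0.87 ± 0.25, adjusted p = 0.00362 and 0.00572). Vegfd, a lymphatic growth factor, rose in FeAAD (0.83 ± 0.25, adjusted p = 0.00592), and Vegfb fell in MaAAD (−0.80 ± 0.23, adjusted p = 0.00576). Ramp1, which joins the calcitonin receptor-like receptor, fell from 109 to 270.1 CPM in MaCon to 61.5 to 98.7 in MaAAD, with no overlap (−1.09 ± 0.17, adjusted p = 2.75e-06). Calcb, a calcitonin gene-related peptide gene with a mean under 1 CPM and the only one lower in FeAAD, was named after its value was seen, as was Nrp1 in MaAAD. Pgf, placental growth factor, is also on the list of HIF targets. It rose in MaAAD (1.25 ± 0.31, adjusted p = 0.00146), fell in FeNonAD (−1.36 ± 0.31, adjusted p = 0.00256) and had a log2 fold change of −0.66 ± 0.29 in FeAAD (adjusted p = 0.0609), and the sexes differed in AAD (1.92 ± 0.43, adjusted p = 0.0148) and in NonAD (2.22 ± 0.48, adjusted p = 0.0198, lost without MaNonAD replicate 1 at 0.106).

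Among 18 tested paralogues of the members, 4 rose and 5 fell in FeAAD and 3 rose and 2 fell in MaAAD, where 44.4% and 35% of all genes were called, with a median log2 fold change of 0.04 and 0.03 beside 0.00127 and −0.03. Ndrg2, of the family of Ndrg1, fell in MaAAD from 440.4 ± 58.4 CPM (SD, n = 10) to 273 ± 40.7 (n = 7), a log2 fold change of −0.69 ± 0.11 (adjusted p = 4.91e-06), while Ndrg1 was at 0.0023 there. It also fell in FeAAD (−0.78 ± 0.11, adjusted p = 9.59e-08), a value named after it was seen. Among the carbonic anhydrases, Car13 rose in FeAAD (0.83 ± 0.25, adjusted p = 0.00709), Car15 fell in FeAAD (−1.07 ± 0.20, adjusted p = 2.73e-05) and Car5b rose in MaAAD (0.64 ± 0.20, adjusted p = 0.0103, lost without MaAAD1 at 0.0864). The calls of Car2 in FeAAD (0.80, adjusted p = 0.0486) and Car15 in MaAAD (−0.53, adjusted p = 0.0499) stood at the threshold and were kept in 8 and 4 of 17 alternative fits. The other calls, also named after their values were seen, were Car6 and Car12, higher in both sexes at a mean under 1 CPM, and Car11 (−0.73, adjusted p = 0.00689) and Egln2, lower in FeAAD. These lists share some genes, among them Egln2, Hif3a, Pgf and Car12, which are counted in each.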

How the data were processed

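Strand-specific RNA sequencing libraries of bulk thoracic aorta from 48 mice were analysed from the deposited table of expected counts per gene, which the authors made with RSEM 1.3.1 and Bowtie2 on GRCm39 per the submitters' processing notes. Of all deposited values, 4.99% were not whole, none of them of a member, and counts were rounded before use, which moved no total by more than 24.1. Genes were filtered with filterByExpr, scaled by TMM (factors 0.874 to 1.08) and tested with edgeR 4.0.16 (R 4.3.3; quasi-likelihood, robust) on all 48 libraries with 1 mean per group. P-values were adjusted by Benjamini-Hochberg over 14431 genes, and a gene was called at an adjusted p under 0.05. SEs were derived from the fold change and its test statistic, and 95% intervals are a normal approximation. Scripts were tested on simulated data. Correlations used log2(CPM + 1) deviations from group means with permutation within groups. No batch, cage or litter is given in the labels used here, and no libraries were identical. Lengths are of the longest GENCODE M21 transcript.

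All 10 members are named. From each other list up to 4 called genes per sex in AAD versus Con with a mean of at least 1 CPM are named, by size of change, and for each member the 2 genes most alike. A gene that this rule selected is not reported here. The members and lists were chosen with earlier results of these data known. Alternatives were DESeq2 1.42.0, its size factors, no filter on low counts, no robust estimation, a replicate block, compared groups only, the added threshold the authors used, an absolute log2 fold change of 1, and fits without single libraries. The fits leaving out FeAAD5, FeAAD9, both, MaAAD1 or MaAAD7 were chosen after seeing the data. The protein motif search planned for the HIF alpha subunits was not run because no protein sequences were used here, and Epo was not analysed here.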

Additional observations from a re-analysis of the deposited data

Results flagged for a closer look

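On the scale of log2(CPM + 1), in 60 combinations of member and group, 4 values, each of another library, lay farther from the rest of their group than Dixon's 95% critical value, and chance alone marks about 1 in 20. Hif1a in MaAAD1 was the lowest of its group at 73.66 CPM, 0.646 of the group's range below the next library on the log2 scale and 0.528 in CPM, where the critical value is 0.568. MaAAD1 was also the highest of all libraries in Vegfa (222 CPM), Bnip3 (213 CPM) and white fat markers (4745 CPM). Egln1 in FeNonAD8 was the lowest of its group at 104.4 CPM, and the same library was the lowest FeNonAD library in Epas1 (169.8 CPM), Egln3 (7.39 CPM), Vegfa (78.6 CPM), Bnip3 (38.9 CPM) and the endothelial sum (607 CPM). Bnip3 in FeCon8 was the highest of its group at 167.3 CPM, and FeCon8 also held the highest white fat sum of FeCon (1962 CPM). Ankrd37 in FeCon9 was the lowest of its group at 0.2198 CPM, which rests on 3 counts. In CPM 7 values from 5 libraries passed the critical value, and only Bnip3 in FeCon8 did so on both scales. The others in CPM were MaAAD1 as the highest of its group in Vegfa, Bnip3 and Adm, FeAAD5 in Ankrd37 (3.73 CPM), MaCon4 in Car9 (1.28 CPM) and MaAAD5 in Car9 (3.11 CPM).

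The change against controls differed between the sexes for 2 genes of the wider lists by edgeR's interaction test, in both stages. For Bhlhe40 the male change exceeded the female change by 1.735 on the log2 scale in NonAD (adjusted p = 0.00233) and by 1.381 in AAD (adjusted p = 0.00778). The level in water controls also differed, with a median of 31.6 CPM in MaCon and 74.3 in FeCon, while the AAD medians were 114.9 and 88.8. For Pgf the difference was 2.224 in NonAD (adjusted p = 0.0198, lost without MaNonAD replicate 1 at 0.106) and 1.916 in AAD (adjusted p = 0.0148). Its median was 4.76 CPM in MaCon and 15.4 in FeCon, and FeCon ran from 2.98 to 32.5.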

How the results depend on the processing

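No called member reversed its direction under any of the 17 alternatives. The authors' added threshold of an absolute log2 fold change of 1 left 0 members called in FeNonAD versus FeCon, 1 in FeAAD versus FeCon, 0 in FeAAD versus FeNonAD, 1 in MaAAD versus MaCon and 0 in MaCon versus FeCon. With only the compared groups fitted, 0 members were called in FeAAD versus FeNonAD and 0 in MaCon versus FeCon, with Egln3 losing its call there and in FeAAD versus FeCon. Without FeAAD5 and FeAAD9, 0 were called in FeAAD versus FeNonAD, 3 in MaAAD versus MaNonAD and 2 in MaCon versus FeCon, and 8 member pairs correlated instead of 14. In MaAAD versus MaNonAD, where the edgeR count was 0, DESeq2 gave 2, its size factors 1 and no robust estimation 1. Fits that left out 1 library gave 0 to 4 there (4 without MaAAD1, 2 without FeAAD5 or FeNonAD8, 1 without FeAAD9 or MaNonAD1) and 0 to 1 in MaCon versus FeCon (0 without FeCon10). The share of all genes called was not counted in these alternative fits, so their counts do not set the members apart from other genes. The cause of these shifts was not tested. Of 32 values of list genes, 26 kept their call in all 17 alternatives and 0 reversed. The paralogue list fell from 9 calls to 5 in FeAAD and from 5 to 2 in MaAAD in the most different fits.

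Replicate numbers did not pair the samples, since the correlation of same-numbered libraries between groups ranged from −0.532 to 0.472 and in no pair of groups were all above 0.1. With the replicate block 7 members were called in FeAAD versus FeCon (Bnip3 in addition) and 3 in MaAAD versus MaCon (Adm lost, −0.63, adjusted p = 0.0578), and no other member's call changed. For Ankrd37 and Car9, counts of 3 to 63 per library limit what could be detected.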

Other observations

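Marker lists not used above moved as follows in AAD. All 5 markers of proliferating cells rose in both sexes, with summed levels of 9.58 CPM in the median FeCon and 126.5 in the median FeAAD library and 9.96 and 100.7 in males. All 5 B cell markers rose in FeAAD and 3 in MaAAD, at summed medians of 1.56 and 6.18 CPM in females. B cell markers were also higher in MaNonAD than in MaCon, 4 of 5, at summed medians of 8.93 and 2.05 CPM. The 6 tested red cell markers rose in FeAAD, where FeAAD2 alone reached 26930 CPM against a group median of 641. In MaAAD 0 of the 6 were called against MaCon, and the male group medians were 452 CPM in MaCon, 1460 in MaNonAD and 886 in MaAAD. Of 10 fibroblast markers, 4 rose and 3 fell in FeAAD and 5 rose and 2 fell in MaAAD. Among the 8 heart muscle markers 5 fell in FeAAD and 1 in MaAAD.

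The following HIF targets were named after their values were seen. Pfkp, a subunit of phosphofructokinase, fell by 0.98 ± 0.091 in FeAAD and by 1.01 ± 0.099 in MaAAD on the log2 scale and was also lower in FeNonAD (−0.53) and MaNonAD (−0.55), all 4 called. Lox, the lysyl oxidase that BAPN inhibits, rose in FeAAD (1.21 ± 0.25) and MaAAD (1.08 ± 0.26), as did Loxl2 (0.61 and 1.03) and the collagen lysyl hydroxylase Plod2 (0.73 and 0.80).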
